A study of Mus musculus with 6 samples.

Results

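The genes described here carry names of G protein-coupled receptors, the cell-surface proteins with which a macrophage senses chemokines, lipids, nucleotides, acid and hormones. They are the 46 protein-coding genes of the count table whose names begin with Gpr, Adgr, P2ry, Ptger, Ptgir, Adora, Adrb, S1pr, Lpar, Ccr, Cxcr, Fpr, Hcar, Ffar or Cysltr and that had at least 60 counts summed over the 6 libraries. Gpr162, Adgre1 and Ccrl2 were left out by the rule. Apart from these 3, 168 of the 20461 protein-coding entries had such a name, of which 122 lay under 60 counts and 49 had 0 counts. The genes nearest to the limit were Adgrg1 with 74 counts, inside, and Gpr4 with 54, outside. All 46 passed the filter on low counts.

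A name is not a function, and 8 of the 46 are not established surface receptors. Adrbk1 encodes GRK2, a kinase that switches receptors off, and Gprasp1 encodes a protein that sorts internalised receptors. Gpr89 is a channel of the Golgi, Gpr107 and Gpr108 are Golgi membrane proteins, Gpr137 and Gpr155 reside on lysosomes, and Gpr180 is placed with them here. The other 38 are receptors: 6 for chemokines, 5 for lysophospholipids, 4 for prostanoids, 4 for oxysterols and metabolites, 3 for purines and pyrimidines, 3 that sense protons, 4 of the adhesion type, 6 orphans, and 1 each for formyl peptides and cysteinyl leukotrienes, besides 1 not described here.

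The cells were bone-marrow-derived macrophages of 6-week-old male wild-type C57BL/6 mice, grown for 6 days with 20% serum and 30% medium conditioned by L-929 cells, a source of M-CSF. Wells then received PBS, or 20 µg of extracellular vesicles (EVs), for 6 h. The EVs came from Aspergillus flavus, a mould, of the strain labelled LD-F1 or LD-F1_b; the labels do not say what the suffix stands for. Each of the 3 groups had 2 libraries, called biological replicates in the series' design. Whether a replicate was a separate mouse, a pool or a separate culture is not given, so p-values measure the spread between these libraries. Libraries held 13722215 to 15277997 counts, of which the 46 genes took 0.159% to 0.195%. In a library 3 counts equal 0.189 to 0.225 CPM, the unit of level used below, which gives each count relative to the TMM-scaled total of its library. In these bulk samples fewer cells of a type and less RNA per cell cannot be told apart.

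Of 9 macrophage markers in the table, Csf1r, Cd14, Cd68 and Adgre1 were abundant. The list summed to 2780 to 2790 CPM in PBS, 3190 to 3220 with LD-F1 and 3120 to 3220 with LD-F1_b. Cd14, the only one called, went from a mean of 422 CPM to 988 and 778. The median log2 fold change of the 6 tested was -0.14 with LD-F1 and 0.006 with LD-F1_b. Itgam was nearly absent (7 counts in all 6 libraries), as were C1qa (25) and Mertk (28), and C1qb (116) and Fcgr1 (413) were low. Neutrophil, T and NK cell, B cell, mast cell and eosinophil, and fibroblast markers summed to at most 7.54 CPM, with Ly6g, S100a9, Cd3e, Ms4a1, Cpa3 and Dcn among those at 0. The 6 dendritic cell markers (Siglech at 0) summed to 2.90 to 3.26 CPM in PBS, 8.89 to 8.99 with LD-F1 and 6.15 to 7.16 with LD-F1_b. Xcr1 carried the difference, at means of 1.22, 8.06 and 4.44 CPM, while Cd209a and Zbtb46 were at -1.26 ± 0.81 and -0.90 ± 0.67 with LD-F1 and not called; the median of the 3 tested was -0.90. The 5 endothelial markers (0 of them at 0) summed to 48.3 to 55.9 CPM in PBS, 27.6 to 36.9 with LD-F1 and 37.4 to 38.7 with LD-F1_b, nearly all of it Vwf. The part of these 2 lists in the results below was not tested. The LD-F1 replicates differed from each other along gene length. Over 9661 genes of at least 5 CPM on average, the log2 difference, replicate 1 minus 2, was correlated with length (Spearman's rank correlation 0.48). This correlation was 0.20 for LD-F1_b and 0.008 for PBS. Across the 46 genes it was -0.023 for LD-F1. No limit on level was set there, and 14 of the 46 lay under 5 CPM in PBS, so the 2 sets are unlike.

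G protein-coupled receptors span the membrane with a bundle of helices and, when bound by a ligand, activate a G protein whose alpha subunit sets the response. Gs raises cyclic AMP, which in macrophages restrains many inflammatory genes; Gi lowers it and drives migration; Gq releases calcium; G12 and G13 act on the cytoskeleton. Chemokine receptors couple to Gi and steer cells toward tissue or hold them in the marrow. Receptors for prostaglandins, adenosine, lysophospholipids and protons read out the state of the surrounding tissue.

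Promoter windows from RefSeq (build GRCm38.p6, C57BL/6J; 250 bases before to 50 bases after a start) were found for 33 of the 46 genes. They are shown for the called receptor genes with the largest rise and fall with LD-F1 among those with a window, Gpr84 and Cxcr4, for the adenosine receptor gene Adora2b, and for the 2 called genes with a single window and a match to a searched motif, S1pr2 and Lpar2. All are written 5′ to 3′ on the strand of the gene, in lower case, with motif matches in capitals.
Gpr84, chr15:103310389-103310688, minus strand: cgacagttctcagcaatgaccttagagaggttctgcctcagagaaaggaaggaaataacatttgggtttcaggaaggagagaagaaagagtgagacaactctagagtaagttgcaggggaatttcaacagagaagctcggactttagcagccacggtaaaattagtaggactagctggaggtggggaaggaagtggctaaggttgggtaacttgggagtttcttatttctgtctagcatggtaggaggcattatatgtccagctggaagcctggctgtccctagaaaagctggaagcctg
Adora2b, chr11:62248734-62249033, plus strand: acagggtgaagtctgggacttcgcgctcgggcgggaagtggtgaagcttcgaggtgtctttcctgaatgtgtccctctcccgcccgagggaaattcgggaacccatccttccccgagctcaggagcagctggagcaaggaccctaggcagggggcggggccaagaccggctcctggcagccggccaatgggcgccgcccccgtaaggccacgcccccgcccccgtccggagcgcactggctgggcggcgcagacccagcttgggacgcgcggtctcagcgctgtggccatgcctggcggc
Cxcr4, chr1:128592250-128592549, minus strand: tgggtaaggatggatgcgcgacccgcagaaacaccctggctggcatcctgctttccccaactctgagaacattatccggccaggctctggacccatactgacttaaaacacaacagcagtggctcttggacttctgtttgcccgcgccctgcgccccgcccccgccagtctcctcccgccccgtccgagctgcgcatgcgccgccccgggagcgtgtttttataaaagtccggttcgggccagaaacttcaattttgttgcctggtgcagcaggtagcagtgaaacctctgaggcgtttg
S1pr2, chr9:20976744-20977043, minus strand: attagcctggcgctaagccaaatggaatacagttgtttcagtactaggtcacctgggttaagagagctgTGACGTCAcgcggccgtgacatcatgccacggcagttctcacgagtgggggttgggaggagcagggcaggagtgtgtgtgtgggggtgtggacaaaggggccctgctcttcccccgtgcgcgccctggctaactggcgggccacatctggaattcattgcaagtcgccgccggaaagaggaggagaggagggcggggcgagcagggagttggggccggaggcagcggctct
Lpar2, chr8:69822315-69822614, plus strand: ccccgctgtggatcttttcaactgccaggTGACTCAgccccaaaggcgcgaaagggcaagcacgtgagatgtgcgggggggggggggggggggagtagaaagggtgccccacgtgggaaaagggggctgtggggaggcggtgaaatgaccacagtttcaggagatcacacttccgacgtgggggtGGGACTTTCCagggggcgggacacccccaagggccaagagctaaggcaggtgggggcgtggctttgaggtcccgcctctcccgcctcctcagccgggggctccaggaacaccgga

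The motifs searched on both strands were the cyclic AMP response element TGACGTCA, the AP-1 site TGANTCA, where N is any base, the kappaB site (GGGA, any base, then TTTCC) and the interferon response element (TTTC, 2 of any base, then TTTC); these letters do not contain one another. Of all 32851 windows of the table, 1.79%, 7.81%, 0.411% and 3.44% hold them. Among the 9 windows of the 8 genes called higher with LD-F1, 1 held the cyclic AMP element (S1pr2, from 181 bases before the start) and 1 the AP-1 site (Gpr35), and 0 held either of the others. Among the 6 windows of the 5 genes called lower, 1, that of Lpar2, held an AP-1 site and a kappaB site. The windows of Gpr84, Adora2b and Cxcr4 held 0 matches. A match is a run of letters and not a shown site of binding, and no match says only that these letters are not in this window.

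In resting macrophages, those in PBS, the levels per length of gene differed widely, as the plot of PBS levels shows. Adrbk1, the receptor kinase, was highest at 58.2 CPM per kilobase. Among the receptors the highest were P2ry6, which binds UDP (32.3 CPM per kilobase), S1pr2 for sphingosine 1-phosphate (29.9), Ptgir for prostacyclin (29.0), Gpr84 for medium-chain fatty acids (28.9) and Ptger1 for prostaglandin E2 (27.5). P2ry6 lay above S1pr2, and S1pr2 above the other 3, in both libraries; the levels of Ptgir, Gpr84 and Ptger1 overlapped and have no clear order. Gpr183, which guides cells along oxysterols, followed at 24.8, Gpr132 at 19.6 and Lpar5 at 16.2. At the low end lay the chemokine receptor gene Ccr2 (0.371) and the orphan Gpr157 (0.189). The length is that given in the table for all exons, so long genes such as Adgrl2 and Gpr107 may be understated.

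**Figure D1:**
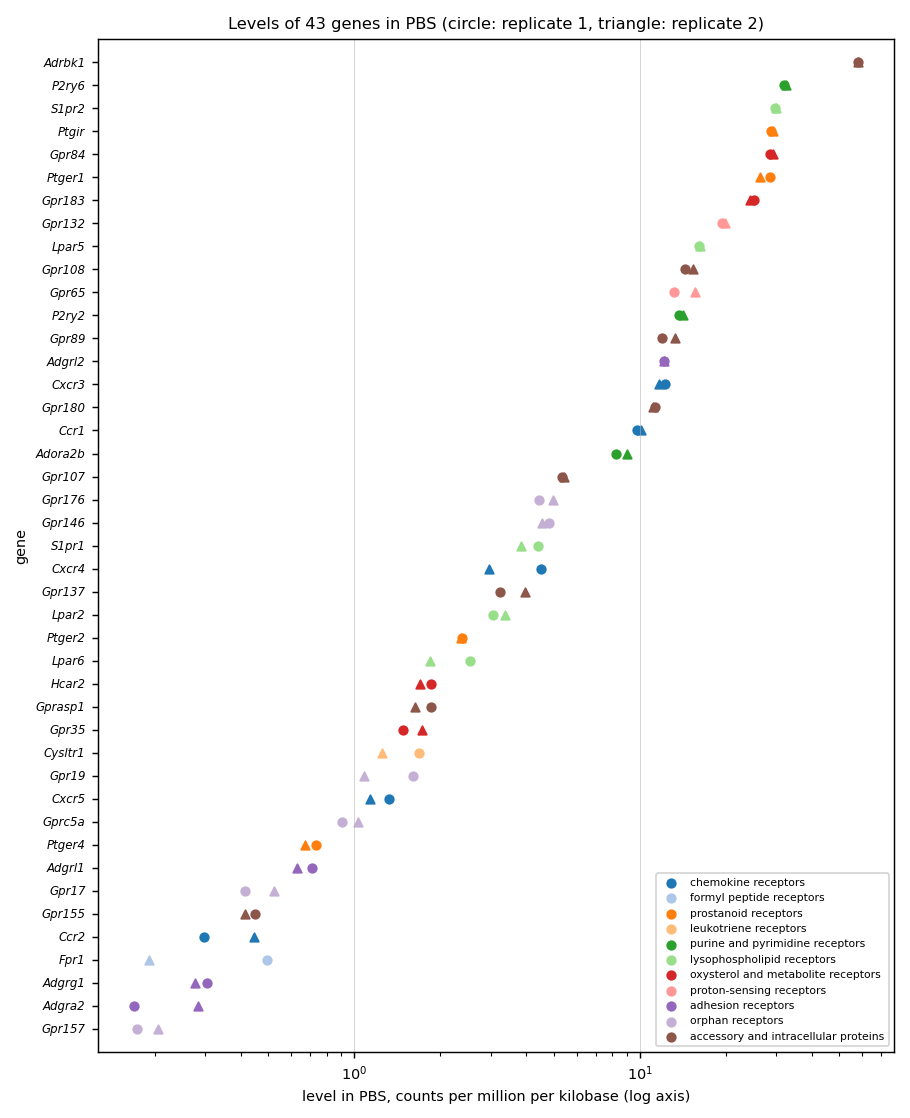
Level of 43 of the 46 genes in the 2 PBS libraries (x axis, log scale, CPM per kilobase of gene; y axis, genes in order of level; colour, receptor class; circle and triangle, replicates 1 and 2). Adrbk1 stands at 58.2 and Gpr157 at 0.189.

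With LD-F1 EVs, 11 of the 46 genes rose, 7 fell and 28 did not pass (edgeR quasi-likelihood test, Benjamini-Hochberg adjusted p under 0.05 over 12740 genes). The 18 called genes are 39.1% of the 46, and the share called among all genes tested was 21.2%, with 11.4% higher and 9.87% lower. The libraries of LD-F1 and PBS did not overlap for 35 of the 46, against 59.5% of all genes tested. A change of at least 2-fold was called for 11 genes, against 4.28% of all genes tested. The median log2 fold change of the 46 was -0.02, and that of all genes 0.01. With LD-F1_b EVs, 8 rose, 2 fell and 36 did not pass, which is 21.7% against 11% of all genes tested (6.44% higher and 4.54% lower). The libraries did not overlap for 32 of the 46, against 60.4% of all, and 4 changed by at least 2-fold (1.76% of all). All 18 calls with LD-F1 and all 10 with LD-F1_b were among the 38 receptors, and 0 of the 8 other genes was called in either comparison. Both comparisons use the same 2 PBS libraries, so their values are given side by side and not as independent of each other.

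**Figure D2:**
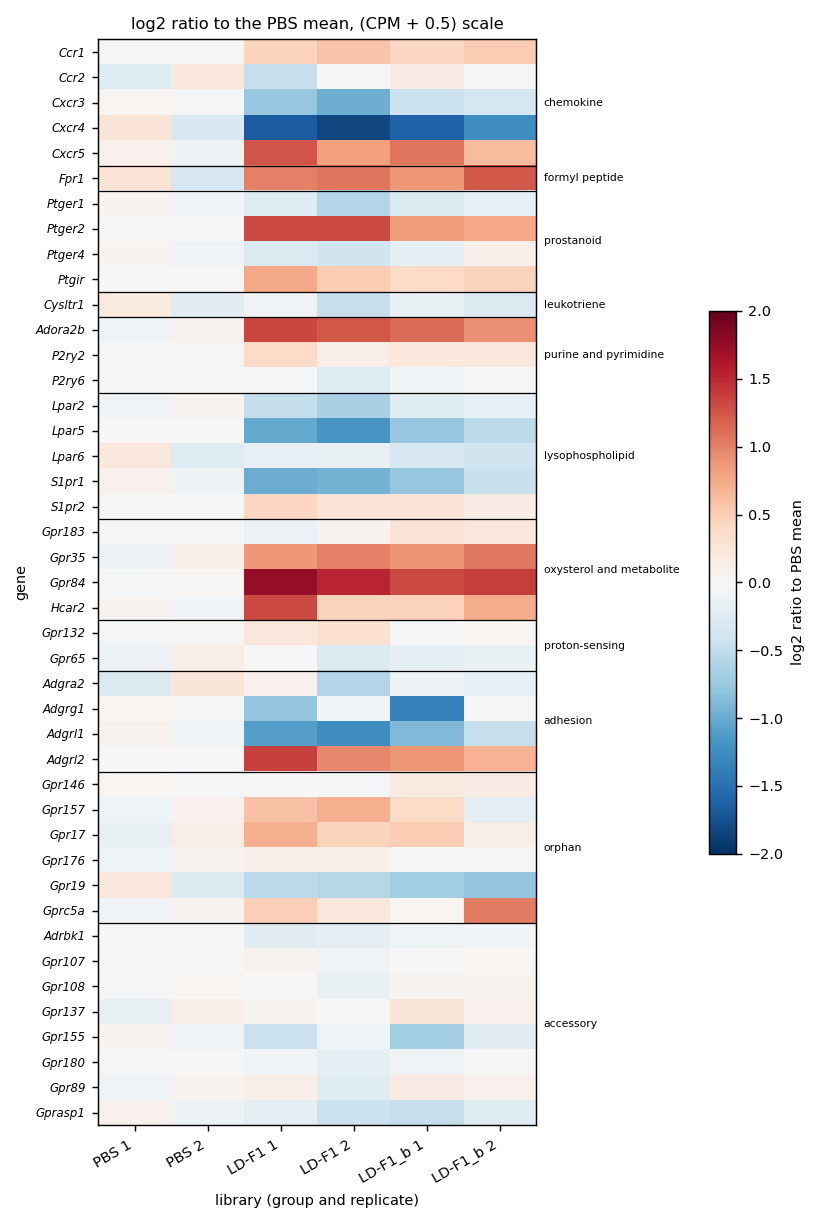
Log2 ratio of each library to the PBS mean, on the scale of CPM + 0.5, for 43 of the 46 genes (rows, grouped by class) in the 6 libraries (columns); the colour scale ends at 2 and -2. Gpr84, Adora2b and Ptger2 are higher in all 4 EV libraries and Cxcr4 is lower in all 4.

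Of the 4 receptors of oxysterols and metabolites, 3 rose with LD-F1 and 2 with LD-F1_b, and 0 fell. Gpr84 stood at 44.4 and 45.4 CPM in the PBS libraries, at 152 and 130 with LD-F1 and at 112 and 118 with LD-F1_b. The 3 groups did not overlap, with PBS lowest and LD-F1 highest. It was 3.14-fold higher with LD-F1 (log2 1.65 ± 0.10 SE, n = 2 per group, edgeR adjusted p = 5.7e-07) and 2.57-fold higher with LD-F1_b (1.36 ± 0.10, edgeR adjusted p = 8.06e-06), the smallest adjusted p of the 46 in both. In the table, which has the positions of a C57BL/6NJ assembly, Gpr84 (MGP_C57BL6NJ_G0022853) lies on chromosome 15 from 109457959 to 109460161. In the GENCODE M21 annotation of GRCm38 its exons share 681 bases with Gm49482 on the opposite strand; those of Ptger2, Adgrl1 and Adgrl2 likewise share 246, 1107 and 202 bases with Gm17173, Gm10644 and Gm43573, and the counting is not stated to use strand. Gpr35, a receptor proposed to bind kynurenic acid, stood at 7.18 and 8.32 CPM in PBS, 14.5 and 16.1 with LD-F1, and 14.9 and 16.7 with LD-F1_b. The 4 EV libraries lay above both PBS libraries and overlapped each other. Its change was 0.98 ± 0.17 (adjusted p = 0.0015) and 1.03 ± 0.17 (adjusted p = 0.00221); without PBS replicate 1 the LD-F1_b call was lost (0.92, adjusted p = 0.0514, the highest of the 14 alternatives, the lowest being 4.77e-06).

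Hcar2, the receptor of the ketone body beta-hydroxybutyrate and of niacin, rested on fewer reads. It stood at 3.59 and 3.28 CPM in PBS, 9.29 and 4.84 with LD-F1, and 4.94 and 6.08 with LD-F1_b. The LD-F1 library 1 stood well above the other 5. Its call with LD-F1 (1.04 ± 0.31, adjusted p = 0.0336) was lost under 7 of the 14 alternatives, with adjusted p from 0.000669 to 0.249. Without LD-F1 replicate 1 the change was 0.49, without PBS replicate 1 or 2 it was 1.101 or 0.97, without LD-F1_b replicate 1 or 2 it was 1.03 or 1.03, with library totals alone 0.93 and with only the groups compared 1.04, and none of these passed. With LD-F1_b Hcar2 was at 0.68 ± 0.32 (adjusted p = 0.207). The oxysterol receptor gene Gpr183 was at -0.02 ± 0.10 with LD-F1 and 0.25 ± 0.10 with LD-F1_b (adjusted p = 0.917 and 0.141). It was called higher with LD-F1_b when only the groups compared entered (0.24, adjusted p = 0.0173) and without LD-F1 replicate 1 or 2 (0.24 and 0.25).

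Of the 4 prostanoid receptors, 2 rose with each EV and 1 fell with LD-F1. Ptger2, the EP2 receptor of prostaglandin E2, which acts through Gs, stood at 8.74 and 8.69 CPM in PBS, 22.6 and 22.4 with LD-F1, and 16.0 and 15.3 with LD-F1_b. The groups did not overlap, and the replicates of each group lay within 1 CPM of each other. Ptger2 rose by 1.37 ± 0.15 (2.58-fold, adjusted p = 4.48e-05) and by 0.84 ± 0.15 (1.80-fold, adjusted p = 0.00373). Without PBS replicate 1, PBS replicate 2 or LD-F1_b replicate 1 the LD-F1_b change was 0.84, 0.84 and 0.81 and just missed the threshold (adjusted p = 0.0547, 0.0541 and 0.0538, the lowest of the alternatives being 0.000145). Ptgir, the prostacyclin receptor and likewise coupled to Gs, stood at 95.9 and 97.6 CPM in PBS, 164 and 138 with LD-F1, and 128 and 133 with LD-F1_b. It rose by 0.64 ± 0.10 (adjusted p = 0.000609) and by 0.43 ± 0.10 (adjusted p = 0.0152), again with no overlap of groups. Without PBS replicate 1 or 2, or LD-F1_b replicate 1 or 2, its LD-F1_b change was 0.41, 0.44, 0.46 and 0.40 and did not pass (adjusted p up to 0.193, the lowest of the alternatives being 3.37e-05).

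Ptger4, the EP4 receptor that shares both ligand and Gs coupling with EP2, did not rise with it. It stood at 4.89 and 4.47 CPM in PBS, 3.75 and 3.41 with LD-F1, and 4.03 and 5.04 with LD-F1_b (-0.39 ± 0.26 and -0.04 ± 0.25, adjusted p = 0.331 and 0.942). Ptger1, the EP1 receptor, stood at 142 and 131 CPM in PBS, 116 and 90.6 with LD-F1, and 111 and 122 with LD-F1_b. Both LD-F1 libraries lay below PBS, and its change of -0.40 ± 0.12 passed (adjusted p = 0.028), while -0.23 ± 0.12 with LD-F1_b did not (adjusted p = 0.256). The latter passed with only the groups compared and without LD-F1 replicate 1 or 2 (-0.23 in all 3, adjusted p = 0.02, 0.0171 and 0.0171). Without PBS replicate 1 or 2 the LD-F1 change was -0.34 or -0.46, without LD-F1_b replicate 1 or 2 it was -0.41 or -0.40, with only the groups compared it was -0.40 (adjusted p = 0.0753), and none passed; adjusted p ran from 2.6e-05 to 0.229 over the alternatives. Ptger1 is an uncertain entry. In the GENCODE M21 annotation of GRCm38 its exons overlap those of a gene on the opposite strand, and the strand setting of the counting is not given. Reads of the 2 genes cannot be told apart here.

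Of 9 tested genes of prostanoid and leukotriene synthesis, 2 rose, 1 fell and 6 were not called with each EV. Of all genes tested, 21.2% were called with LD-F1 and 11% with LD-F1_b. Ptgs2, the inducible cyclooxygenase, went from 3.02 CPM in PBS to 108 with LD-F1 and 35.4 with LD-F1_b (5.15 ± 0.26 and 3.54 ± 0.26, adjusted p = 5.7e-07 and 2.19e-05). Ptges, which makes prostaglandin E2, rose by 1.29 ± 0.17 and 0.97 ± 0.18 (adjusted p = 0.000233 and 0.00396). Hpgds, which makes prostaglandin D2, fell by 0.84 and by 0.59 on the log2 scale (SE 0.12 each, adjusted p = 0.000341 and 0.00704). The median of that list was 0.04 with LD-F1 and 0.10 with LD-F1_b. The leukotriene receptor gene Cysltr1 was at -0.27 ± 0.24 and -0.23 ± 0.24 (adjusted p = 0.472 and 0.612).

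Among purine and pyrimidine receptors only the adenosine receptor was called. Adora2b, the A2B receptor coupled to Gs, stood at 15.2 and 16.7 CPM in PBS, 41.1 and 38.3 with LD-F1, and 35.1 and 30.3 with LD-F1_b. The 3 groups did not overlap. It rose 2.49-fold (1.31 ± 0.13, adjusted p = 2.1e-05) and 2.05-fold (1.04 ± 0.13, adjusted p = 0.000349), and both calls held under all 14 alternatives. Adora2b (MGP_C57BL6NJ_G0018842) lies on chromosome 11 from 64231556 to 64252267 in the table. P2ry2, which binds ATP and UTP, stood at 41.2 and 42.6 CPM in PBS, 55.7 and 46.2 with LD-F1, and 48.7 and 49.2 with LD-F1_b (0.28 ± 0.11 and 0.22 ± 0.11, adjusted p = 0.109 and 0.259). All 4 EV libraries lay above PBS, and without LD-F1 replicate 2 it was called (0.41, adjusted p = 0.00708). P2ry6, the most abundant receptor per length in PBS, stood at 62.2 and 63.1 CPM there, 61.9 and 52.2 with LD-F1 and 59.2 and 63.7 with LD-F1_b, and was not called (-0.14 ± 0.11 and -0.03 ± 0.11, adjusted p = 0.423 and 0.909). Without LD-F1 replicate 1 it was called lower (-0.27, adjusted p = 0.0467).

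Of 5 tested genes of purine enzymes and transporters, 0 rose and 3 fell with LD-F1, and 2 fell with LD-F1_b (medians -0.59 and -0.39). The shares called lower among all genes tested were 9.87% and 4.54%. Entpd1, which encodes CD39 and degrades ATP outside the cell, changed by -0.59 ± 0.10 and -0.41 ± 0.10 (adjusted p = 0.00167 and 0.0246). The nucleoside transporter genes Slc29a3 and Slc29a1 were at -1.23 ± 0.26 and -0.59 ± 0.12 with LD-F1 (adjusted p = 0.00567 and 0.00409) and at -1.20 ± 0.26 and -0.23 ± 0.12 with LD-F1_b (adjusted p = 0.0115 and 0.263). Nt5e, which encodes CD73 and completes adenosine production outside the cell, had 10 counts over the 6 libraries.

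Over the 6 members known to couple to Gs, among them Ptgir, Ptger2, Ptger4, Adora2b and Gpr65, 3 rose, 0 fell and 3 did not pass with each EV. Over 11 coupled to Gi, 4 rose and 3 fell with LD-F1, and 3 rose and 1 fell with LD-F1_b. Of all genes tested, 11.4% were called higher and 9.87% lower with LD-F1, and 6.44% and 4.54% with LD-F1_b. These 2 lists are short and were drawn up with the results known, so no pattern by coupling can be read from them.

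Of the proton-sensing receptors, 2 are described. Gpr65, coupled to Gs, stood at 27.0 and 31.9 CPM in PBS against 24.3 to 29.4 in the EV libraries and was not called (-0.14 ± 0.14 and -0.16 ± 0.14, adjusted p = 0.542 and 0.525). Gpr132, which responds to oxidised fatty acids, stood at 47.6 and 48.6 CPM in PBS, 56.7 and 60.2 with LD-F1 and 47.1 and 49.5 with LD-F1_b (0.28 ± 0.10 and 0.01 ± 0.10, adjusted p = 0.0676 and 0.985). It passed with LD-F1 without LD-F1 replicate 1 (0.32, adjusted p = 0.0198).

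**Figure D3:**
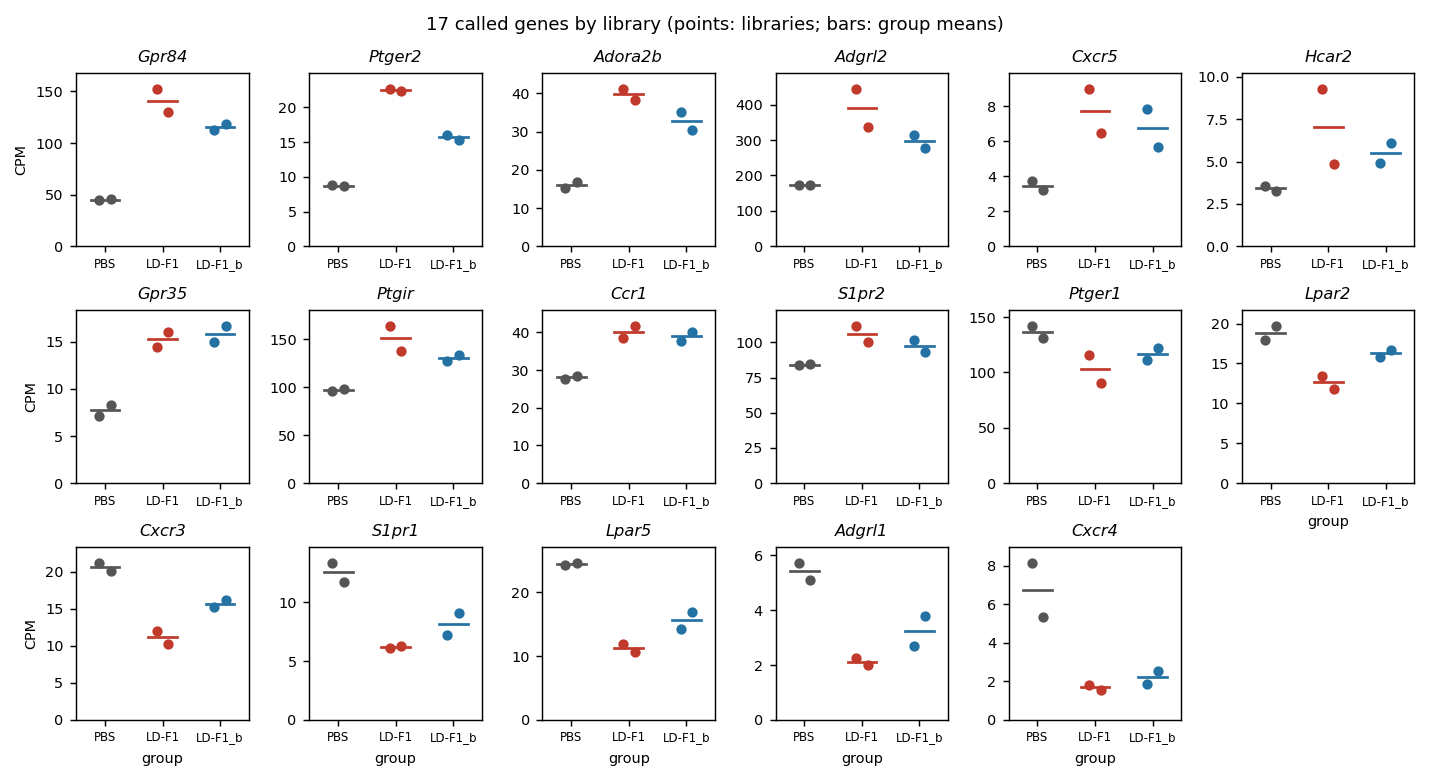
CPM (y axes, from 0) of 17 of the 18 called genes in each library, by group (x axes); points are libraries and bars group means, and panels run from the highest to the lowest log2 fold change with LD-F1. Gpr84 goes from 44.4 and 45.4 in PBS to 152 and 130 with LD-F1, and Cxcr4 from 8.16 and 5.35 to 1.80 and 1.56.

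Chemokine receptors moved in both directions, 2 up and 2 down of 6 with LD-F1, and 2 up and 1 down with LD-F1_b. Cxcr4, the receptor for Cxcl12 that retains cells in the bone marrow, was the most strongly lowered gene of the 46. It stood at 8.16 and 5.35 CPM in PBS (125 and 85 counts), 1.80 and 1.56 with LD-F1 (24 and 22 counts), and 1.88 and 2.56 with LD-F1_b (27 and 37 counts). All 4 EV libraries lay well below both PBS libraries, which also differed from each other. The level was 4.0-fold lower with LD-F1 (-2.001 ± 0.33, adjusted p = 0.000938) and 3.04-fold lower with LD-F1_b (-1.60 ± 0.31, adjusted p = 0.00614). The LD-F1_b call was lost without PBS replicate 1 (-1.27, adjusted p = 0.132) or LD-F1_b replicate 1 (-1.40, adjusted p = 0.105), the lowest adjusted p of the alternatives being 2.61e-05. Cxcr4 (MGP_C57BL6NJ_G0016835) lies on chromosome 1 from 136797810 to 136804418 in the table. Its ligand gene Cxcl12 had 0 counts.

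Cxcr3, the receptor for the interferon-induced chemokines Cxcl9 and Cxcl10, stood at 21.3 and 20.2 CPM in PBS, 12.1 and 10.3 with LD-F1, and 15.3 and 16.2 with LD-F1_b. The groups did not overlap. It was 1.85-fold lower with LD-F1 (-0.89 ± 0.15, adjusted p = 0.00136), and -0.40 ± 0.15 with LD-F1_b did not pass (adjusted p = 0.118). That value passed when only the groups compared entered (-0.40, adjusted p = 0.0313) and without LD-F1 replicate 1 or 2 (-0.40 each, adjusted p = 0.0347 and 0.0354). Its ligand gene Cxcl10 rose with LD-F1, from 1.12 to 10.5 CPM (3.22 ± 0.30, edgeR adjusted p = 1.38e-05). With LD-F1_b Cxcl10 stood at 2.18 CPM and was not called (0.95 ± 0.35, edgeR adjusted p = 0.108). It was lower with LD-F1_b than with LD-F1 (-2.26 ± 0.28, edgeR adjusted p = 0.00368). Cxcl9 had 0 counts.

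Ccr1, a receptor for Ccl3, Ccl5, Ccl7 and Ccl9, stood at 27.6 and 28.5 CPM in PBS, 38.4 and 41.7 with LD-F1, and 37.7 and 40.2 with LD-F1_b. Both EV groups lay above PBS and overlapped each other. Ccr1 rose by 0.52 ± 0.11 (1.43-fold, adjusted p = 0.00633) and by 0.47 ± 0.11 (adjusted p = 0.0182). Without PBS replicate 1 or 2 the changes were 0.49 or 0.54 with LD-F1 and 0.45 or 0.49 with LD-F1_b, and without LD-F1_b replicate 1 or 2 the latter was 0.52 or 0.42; none of these passed, with adjusted p up to 0.0927 and 0.216, the lowest of the alternatives being 0.000918 and 0.00138. Those 4 ligand genes are named because they were called, and they were higher with both EVs. They are not a full list of the ligands of Ccr1. Ccl9, the most abundant, went from 535 CPM in PBS to 1029 with LD-F1 and 864 with LD-F1_b, and Ccl3 from 137 to 617 and 398.

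Cxcr5, the receptor for Cxcl13, stood at 3.72 and 3.21 CPM in PBS, 8.99 and 6.47 with LD-F1, and 7.86 and 5.67 with LD-F1_b. Its changes were 1.15 ± 0.27 (adjusted p = 0.00855) and 0.96 ± 0.27 (adjusted p = 0.0384). Without PBS replicate 2 the first was 1.05 and did not pass (adjusted p = 0.0781, the lowest of the alternatives being 0.000212). The second was lost without any of PBS replicate 1, PBS replicate 2, LD-F1_b replicate 1 and LD-F1_b replicate 2 (1.06, 0.85, 0.71 and 1.18, adjusted p from 0.0805 to 0.307) and with library totals alone (0.89, adjusted p = 0.0526), the lowest of the alternatives being 0.00599. Cxcr5 overlaps exons of Bcl9l on the opposite strand by 110 bases, and Bcl9l was at -0.50 ± 0.20 and -0.54 ± 0.20 (adjusted p = 0.0979 and 0.113). Cxcl13 had 0 counts. Ccr2, which brings monocytes out of the marrow toward Ccl2, was scarce, at 1.57 to 2.83 CPM, and was not called with either EV (-0.24 ± 0.39 and 0.10 ± 0.38, adjusted p = 0.718 and 0.913). The formyl peptide receptor gene Fpr1 rested on 10 and 4 counts in PBS, 19 and 21 with LD-F1 and 18 and 25 with LD-F1_b. All EV libraries lay above PBS, and its changes of 1.68 ± 0.59 and 1.71 ± 0.59 did not pass (adjusted p = 0.0651 and 0.0909); with only the groups compared the second passed (1.71, adjusted p = 0.0464).

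Of 14 tested chemokine ligand genes, 10 rose and 0 fell with LD-F1 (median 1.95), and 9 rose with LD-F1_b (median 0.99). The shares called higher among all genes tested were 11.4% and 6.44%. The largest change was that of Cxcl2, a ligand of Cxcr2 (8.19 ± 0.18 and 6.80 ± 0.19, adjusted p = 1.13e-10 and 1.54e-09). Ppbp, also called higher with both, had under 3 counts in each PBS library, so no fold is given.

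Of the 5 receptors of lysophospholipids, 1 rose and 3 fell with LD-F1, and 1 fell with LD-F1_b. Lpar5, a receptor for lysophosphatidic acid, stood at 24.3 and 24.7 CPM in PBS, 11.8 and 10.6 with LD-F1, and 14.3 and 17.0 with LD-F1_b, with no overlap of groups. It was 2.19-fold lower with LD-F1 (-1.13 ± 0.15, adjusted p = 0.000249) and 1.57-fold lower with LD-F1_b (-0.65 ± 0.15, adjusted p = 0.0149). The LD-F1_b call was lost without PBS replicate 1 or 2 (-0.66 and -0.64) and without LD-F1_b replicate 1 or 2 (-0.53 and -0.78), with adjusted p from 0.00116 to 0.171 over the alternatives. S1pr1, the Gi-coupled receptor that lets lymphocytes leave tissues along sphingosine 1-phosphate, stood at 13.4 and 11.7 CPM in PBS, 6.07 and 6.26 with LD-F1, and 7.23 and 9.12 with LD-F1_b. The order of groups was that of Lpar5. It was 2.03-fold lower with LD-F1 (-1.02 ± 0.20, adjusted p = 0.00298). With LD-F1_b it was at -0.62 ± 0.19 (adjusted p = 0.0624) and passed under 5 alternatives: library totals alone, no filter, only the groups compared, and without LD-F1 replicate 1 or 2 (-0.62 in both of the latter, adjusted p = 0.018 and 0.0181).

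Lpar2 stood at 17.9 and 19.7 CPM in PBS, 13.4 and 11.8 with LD-F1, and 15.9 and 16.7 with LD-F1_b. It fell with LD-F1 (-0.58 ± 0.15, adjusted p = 0.0183) but not past the threshold without PBS replicate 1, PBS replicate 2 or LD-F1 replicate 2 (-0.65, -0.51 and -0.49, adjusted p up to 0.179, the lowest of the alternatives being 0.00574). With LD-F1_b it was at -0.21 ± 0.15 (adjusted p = 0.433). S1pr2, which acts through G12 and G13 and slows migration, went the other way. It stood at 83.8 and 84.4 CPM in PBS, 112 and 101 with LD-F1, and 102 and 93.0 with LD-F1_b, so that all 4 EV libraries lay above PBS. The rise of 0.34 ± 0.10 with LD-F1 passed (adjusted p = 0.0268) and 0.21 ± 0.10 with LD-F1_b did not (adjusted p = 0.198). The first was lost without PBS replicate 1 or 2 (0.33 and 0.34), without LD-F1_b replicate 1 or 2 (0.34 each), with library totals alone and with only the groups compared, over a range of adjusted p from 0.00111 to 0.209. The second passed with only the groups compared and without LD-F1 replicate 1 or 2 (0.21 in all 3). Lpar6 was at -0.16 ± 0.19 and -0.37 ± 0.19 (adjusted p = 0.617 and 0.273), and it shares 408 exon bases with Rb1 on the opposite strand.

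Among 8 tested genes of lysophospholipid metabolism, 2 rose and 1 fell with LD-F1, and 2 rose with LD-F1_b (medians -0.15 and 0.16). The shares called among all genes tested were 21.2% and 11%. Plpp1, a phosphatase that degrades lysophosphatidic acid and sphingosine 1-phosphate, rose by 1.01 ± 0.10 and 0.70 ± 0.10 (adjusted p = 2.33e-05 and 0.000953), and the kinase gene Sphk2 by 0.35 ± 0.10 and 0.34 ± 0.10 (adjusted p = 0.0257 and 0.0461). Sgpp1 changed by -0.43 ± 0.12 and -0.32 ± 0.12 (adjusted p = 0.0229 and 0.107). Enpp2, which makes lysophosphatidic acid, had 0 counts, and Sphk1 had 2.

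Adhesion receptors, which carry long extracellular parts, included the most abundant receptor of the set by counts and a close relative that went the other way. Adgrl2 (latrophilin 2) stood at 172 and 173 CPM in PBS, 444 and 338 with LD-F1, and 314 and 279 with LD-F1_b. The groups did not overlap, and LD-F1 replicate 1 was the highest library. It rose 2.27-fold (1.18 ± 0.12, adjusted p = 2.59e-05) and 1.72-fold (0.78 ± 0.12, adjusted p = 0.00126); without LD-F1_b replicate 1 the latter was 0.69 and just missed (adjusted p = 0.0562, the lowest of the alternatives being 1.08e-13). Adgrl2 is also the longest gene of the set, at 14186 bases in the table, which is the property along which the LD-F1 replicates differed. Its part was not tested, and without LD-F1 replicate 1 the LD-F1 change was 0.97 (adjusted p = 5.89e-09). Adgrl1 (latrophilin 1) stood at 5.74 and 5.10 CPM in PBS, 2.25 and 1.99 with LD-F1, and 2.71 and 3.80 with LD-F1_b. It was 2.55-fold lower with LD-F1 (-1.35 ± 0.30, adjusted p = 0.00626), a call lost without PBS replicate 1 (-1.27, adjusted p = 0.0627, the lowest being 0.000593), and was at -0.73 ± 0.28 with LD-F1_b (adjusted p = 0.122). Adgra2 and Adgrg1 had 103 and 74 counts in all and were not called. For Adgrg1 the LD-F1_b libraries held 2 and 16 counts.

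The 6 orphan receptors were not called with either EV. Their log2 fold changes ran from -0.64 (Gpr19) to 0.91 (Gpr157) with LD-F1 and from -0.86 (Gpr19) to 0.75 (Gprc5a) with LD-F1_b, with SE up to 0.50 and 0.52 for genes of few counts. All 4 EV libraries of Gpr19 lay below PBS (2.07 to 2.55 CPM against 4.70 and 3.15; adjusted p = 0.193 and 0.12). Gprc5a had 68 counts in LD-F1_b replicate 2 against 29 to 40 in the other 5 libraries. Gpr146 and Gpr176, the better covered orphans, were at -0.02 ± 0.11 and 0.12 ± 0.14 with LD-F1 and at 0.17 ± 0.11 and 0.00 ± 0.14 with LD-F1_b. Gpr17 shares 188 exon bases with Lims2 on the opposite strand and was at 0.67 ± 0.31 and 0.39 ± 0.32 (not called). Lims2 was called higher with both EVs (0.50 ± 0.10 and 0.43 ± 0.10, adjusted p = 0.00423 and 0.0187).

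The 8 accessory and intracellular genes stayed within -0.32 to 0.02 with LD-F1 and -0.52 to 0.17 with LD-F1_b on the log2 scale, and 0 was called. Adrbk1 stood at 254 and 253 CPM in PBS, 216 and 225 with LD-F1, and 238 and 243 with LD-F1_b. The groups did not overlap, but the change was small (-0.20 ± 0.08 and -0.07 ± 0.08, adjusted p = 0.0965 and 0.626). It was called lower with LD-F1 with library totals alone (-0.31, adjusted p = 0.0152) and without LD-F1 replicate 1 or 2 (-0.18 and -0.23, adjusted p = 0.0467 and 0.0151). Gpr108 stood at 30.2 and 32.1 CPM in PBS and 28.4 to 32.5 in the EV libraries (-0.06 ± 0.12 and 0.06 ± 0.12).

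**Figure D4:**
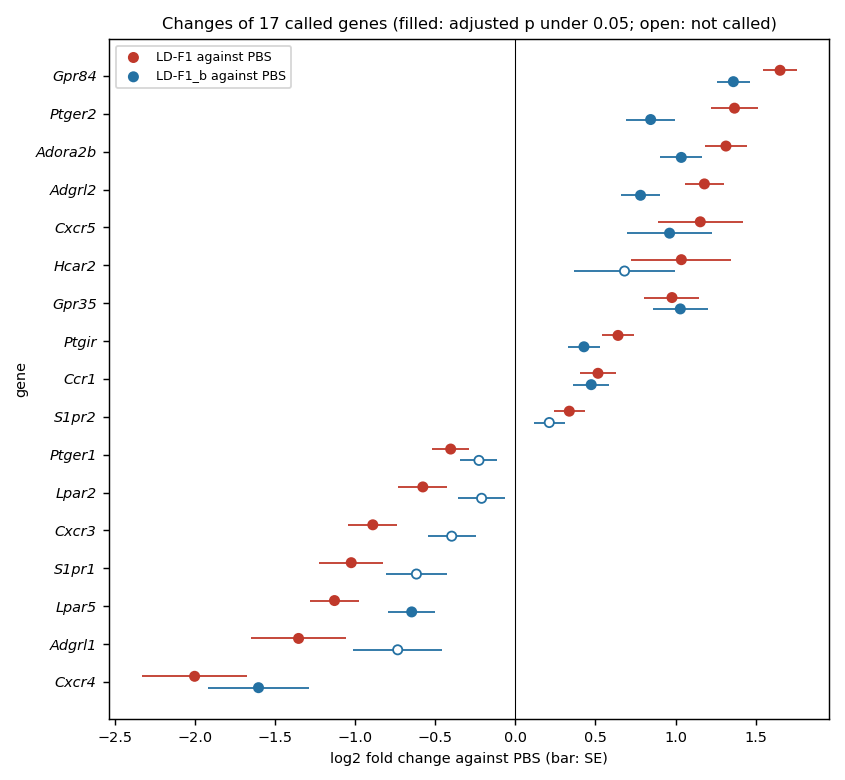
Log2 fold change against PBS (x axis; bars are SE) of 17 of the 18 called genes with LD-F1 (red) and LD-F1_b (blue) EVs; filled points passed an adjusted p of 0.05. Gpr84 stands at 1.65 and 1.36 and Cxcr4 at -2.001 and -1.60; both series share the PBS libraries.

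LD-F1_b was compared with LD-F1 directly. Of the 46 genes 0 was called by edgeR, where the share among all genes tested was 0.424% (0.0157% higher and 0.408% lower), and DESeq2 also called 0. At an unadjusted p under 0.05 there were 10 of the 46, and 8.78% of all genes. The libraries of the 2 EVs did not overlap for 24 of the 46, against 34% of all genes tested. Differences ran from -0.70 to 0.62 on the log2 scale. The smallest adjusted p was that of Ptger2 (-0.52 ± 0.14, adjusted p = 0.219), with libraries at 16.0 and 15.3 CPM against 22.6 and 22.4. Adgrl2 followed at -0.40 ± 0.12 (adjusted p = 0.271), and Cxcr3 and Lpar5 were at 0.49 ± 0.16 and 0.48 ± 0.16 (adjusted p = 0.33 and 0.344). Gpr84 was at -0.29 ± 0.10 (adjusted p = 0.367). For each of these 5 the LD-F1 and LD-F1_b libraries did not overlap, with LD-F1_b between PBS and LD-F1, as was its mean for 17 of the 18 genes called with LD-F1 and not for Gpr35. Both sets of genes were picked by these same values, which favours that order. The share among all genes called with LD-F1 was not computed, so no conclusion is drawn from it. That the differences missed the threshold does not show that the vesicles act alike. The result turned on single LD-F1 libraries. Calls among all genes tested also became more numerous with either LD-F1 library left out, so this is not particular to the 46 genes. Without replicate 1, Cxcr3, Gpr89 and Ptger1 were called higher with LD-F1_b (0.61, 0.36 and 0.36); without replicate 2, Gpr183 was called higher (0.36) and Adgrl2, Gpr84 and Ptgir lower (-0.58, -0.40 and -0.33). No gene was in both sets. With no filter on low counts Adgrl2 was called (-0.40, adjusted p = 0.00593).

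Downstream of the receptors, most genes of the signalling machinery were not called. The same held for all genes tested, of which 21.2% were called with LD-F1 and 11% with LD-F1_b. Among 9 tested G protein alpha subunits 0 rose and 1 fell with each EV, Gna12 (-0.42 ± 0.10 and -0.40 ± 0.10, adjusted p = 0.0115 and 0.0259), and of 9 beta and gamma subunits 0 was called. The alpha subunit genes of the other branches were close to PBS: Gnas of Gs was at -0.01 ± 0.12 and 0.03 ± 0.12, Gnai2 of Gi at -0.10 ± 0.08 and 0.09 ± 0.08, and Gnaq at -0.19 ± 0.09 and -0.07 ± 0.09. RGS proteins speed the shut-off of G proteins, and of 8 tested, 3 rose and 1 fell with LD-F1 and 3 rose with LD-F1_b. Rgs16 rose from 6.76 CPM in PBS to 27.6 and 21.1 (2.03 ± 0.16 and 1.64 ± 0.16, adjusted p = 2.97e-06 and 4.31e-05), and Rgs1 from 58.0 to 141 and 135 (1.28 ± 0.10 and 1.22 ± 0.10, adjusted p = 4.5e-06 and 1.83e-05). Rgs18 fell with LD-F1 (-0.74 ± 0.19, adjusted p = 0.0166). Of 5 receptor kinases and arrestins, only Arrb1, which encodes beta-arrestin 1, was called, lower with both EVs (-0.67 ± 0.10 and -0.49 ± 0.10, adjusted p = 0.000475 and 0.00736), while Arrb2 was at -0.09 ± 0.10 and 0.10 ± 0.10.

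Genes of cyclic AMP turnover moved both ways. Of 6 phosphodiesterase genes, 2 rose and 2 fell with LD-F1 and 2 rose with LD-F1_b. For this and the lists that follow, the share called among all genes tested was 21.2% with LD-F1 and 11% with LD-F1_b. Pde4b, the cyclic AMP-degrading enzyme linked to inflammatory signalling in macrophages, rose from 27.1 CPM to 66.2 and 49.9 (1.29 ± 0.13 and 0.88 ± 0.13, adjusted p = 1.85e-05 and 0.000776), Pde1b rose by 0.44 ± 0.10 and 0.46 ± 0.10 (adjusted p = 0.0077 and 0.0105), and Pde4a was at -0.71 ± 0.15 and -0.36 ± 0.14 (adjusted p = 0.00407 and 0.138). Of 3 adenylyl cyclase genes, Adcy7 was lower with LD-F1 (-0.53 ± 0.11, adjusted p = 0.0047), as were Prkacb (-0.33 ± 0.08, adjusted p = 0.0123) and Crtc1 (-0.43 ± 0.11, adjusted p = 0.0174) among 13 genes of protein kinase A and CREB, where Prkar2b rose (0.82 ± 0.15, adjusted p = 0.00195) and 0 was called with LD-F1_b. In the Gq branch, Itpr3, a calcium release channel, was lower with both EVs (-1.03 ± 0.12 and -0.65 ± 0.12, adjusted p = 9.97e-05 and 0.00506), and Plcb2 with LD-F1 (-0.30 ± 0.08, adjusted p = 0.0219). Of 4 RhoGEF effectors 0 was called with either EV. Of 19 tested receptors of leukocytes outside the naming rule, 5 rose and 6 fell with LD-F1, and 5 rose and 5 fell with LD-F1_b. Ccrl2, which binds chemerin, rose from 0.417 CPM to 9.17 and 6.28 (4.43 ± 0.33 and 3.88 ± 0.34, adjusted p = 2.38e-06 and 2.19e-05), and C5ar2, a receptor for the complement fragment C5a, changed by -1.61 ± 0.19 and -1.12 ± 0.19 (adjusted p = 0.000101 and 0.00218). Calcrl, the receptor subunit for calcitonin gene-related peptide and itself coupled to Gs, rose from 98.0 CPM to 294 and 225 (1.58 ± 0.09 and 1.20 ± 0.09, adjusted p = 3.58e-07 and 8.37e-06). Xcr1, a chemokine receptor known from cross-presenting dendritic cells, rose by 2.72 ± 0.28 and 1.86 ± 0.29 (adjusted p = 2.9e-05 and 0.00153).

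**Figure D5:**
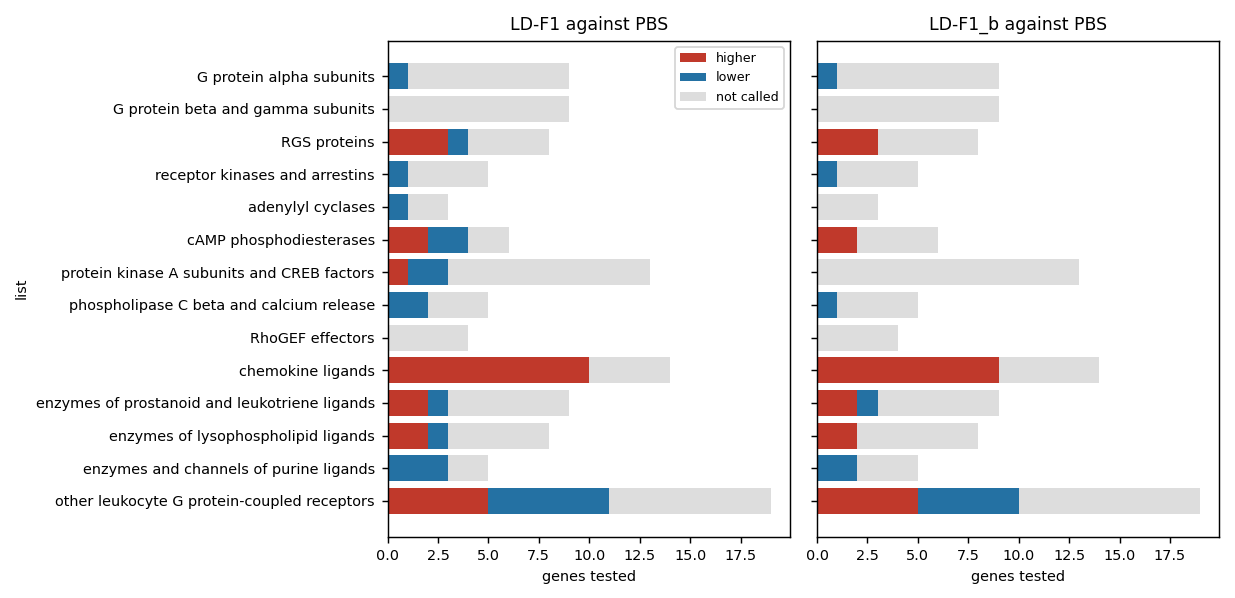
Number of tested genes (x axis) called higher (red), lower (blue) or not called (grey) in each list of the receptor pathway (y axis), with LD-F1 (left) and LD-F1_b (right) EVs against PBS. Chemokine ligands hold 10 and 9 higher genes of 14 and none lower, and the 9 beta and gamma subunits hold no called gene. Of all genes tested, 21.2% and 11% were called.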

How the data were processed

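Poly(A)-selected RNA of 6 libraries was sequenced, and the deposited table holds raw counts per gene. The tools listed, per the submitters' processing notes, are featureCounts 1.5.0-p3, HISAT2 2.0.5, fastp and StringTie 1.3.3b, with the build GRCm39. The identifiers of 41096 of 41972 entries are those of C57BL/6NJ, so positions are taken as that assembly's; no source used here gives the strand or multi-mapping settings. Counts were fitted over all 6 libraries with edgeR 4.0.16 in R 4.3.3 (filterByExpr, TMM scaling, robust quasi-likelihood test), without pairing. All 12740 genes that passed the filter were tested in 3 comparisons, with Benjamini-Hochberg adjustment, and an adjusted p under 0.05 is termed called. CPM use TMM-scaled library sizes, and an SE is the log2 fold change divided by the root of F. Any of the 46 genes could be named; of the 22 other lists, the 3 called genes with the largest changes and called ligands of named receptors. Genes named beyond that (Gnas, Gnai2, Gnaq, Arrb2, Calcrl, markers, genes that overlap a member and those at or near 0 counts) were chosen after their values were seen. Alternatives were other scalings, filters, DESeq2 1.42.0, a replicate block and each library left out. Members and lists were chosen with earlier results of these data known. The model was also run on counts simulated with the spread estimated from these libraries. That run cannot show trends such as the one along gene length. A few genes are not reported here by name.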

Additional observations from a re-analysis of the deposited data

How the results depend on the processing

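Over 14 alternatives, 1845 of 1932 values of the 46 genes kept their side of the threshold, 49 lost a call, 38 gained one and 0 called values changed sign, whereas 67 values that were not called did. Of the 18 calls with LD-F1, 11 held under all 14 alternatives (among them Adgrl2, Adora2b, Cxcr3, Cxcr4, Gpr35, Gpr84, Lpar5, Ptger2, Ptgir and S1pr1), and of the 10 with LD-F1_b, 2 did (Adora2b and Gpr84). With each library left out in turn, 7 to 12 genes were called higher and 4 to 9 lower with LD-F1, 3 to 12 higher and 0 to 5 lower with LD-F1_b, and 0 to 3 higher and 0 to 3 lower between the EVs. With LD-F1, 7 rose without PBS replicate 2 and 4 fell without PBS replicate 1. With LD-F1_b, 3 or 4 rose and 0 or 1 fell without PBS replicate 1 or 2, 3 or 5 rose and 0 or 1 fell without LD-F1_b replicate 1 or 2, and 5 fell without either LD-F1 replicate. With only the groups compared, 5 fell with LD-F1_b, and with no filter 1 was lower with LD-F1_b than with LD-F1. Library totals alone moved the median log2 fold change of all genes by -0.105 with LD-F1 and -0.0728 with LD-F1_b. DESeq2 made the same 11 and 7 calls with LD-F1, 8 and 2 with LD-F1_b and 0 between the EVs, as did the fit with a replicate block. Same-numbered libraries did not deviate together (r = -0.0234, 0.00358 and 0.0837 in the 3 comparisons over 12740 genes), so the numbers were not taken as pairs. Counts of calls among all genes tested moved from setting to setting as well, so the shifts in calls are not particular to the 46 genes. The cause of these shifts was not tested. Genes of few counts, such as Fpr1 and Adgrg1, had SE above 0.4, which limits what this depth can show for them.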
